A study of Rattus norvegicus with 5 samples.

Results

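Ccl5 (RANTES), a CC chemokine that draws T cells, natural killer (NK) cells, monocytes and eosinophils, was examined together with its receptors Ccr1 and Ccr3 in sorted rat blood leukocytes labelled as MDSCs (myeloid-derived suppressor cells), a loosely defined myeloid population that dampens T cell activity. Members were all probes whose single gene symbol in the platform's annotation was Ccl5 (probe 20896278, Entrez gene 81780), Ccr1 (probes 21140206 and 21432224, Entrez gene 57301) or Ccr3 (probe 22002714, Entrez gene 117027), which gave 4 probes for 3 genes, of 26856 probes with values and 5990 genes with a probe of their own name. The trio was chosen by the measured fall of Ccl5 between the groups described here, so the values of all 4 probes in that contrast are given as a description. The fit across all probes below includes 3 of the 4, and its result for them is not used as evidence. All cells came from LEW.1A rats at day 100 after a kidney transplant, and the labels give 1 sorting protocol for both groups. The labels state neither the recipients' age nor the antibody's dose. Tolerant recipients (3 arrays) carried a LEW.1W kidney, mismatched at MHC class I and II, and had been treated with JJ319, an antibody against CD28, a costimulatory receptor of T cells; their own kidneys were removed after grafting. Syngeneic recipients (2 arrays) carried a LEW.1A kidney and had no mismatch. Beads first took out cells with MHC class II or CD3 on their surface, and a magnetic sort then kept those stained by antibodies to CD80 and CD86, so a sample was a mixture defined by those antigens. The labels tie no array to an animal, and the design text counts 3 recipients in each group, so the spread between arrays may be technical.

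CC chemokines are small secreted proteins that bind receptors that span the membrane many times, signal through inhibitory G proteins and steer cells along a gradient. Ccl5 is made chiefly by cytotoxic lymphocytes and is also stored in platelets. Ccr1 is carried by monocytes and neutrophils in rodents. Ccr3 is the receptor characteristic of eosinophils and is also found on basophils.

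Ccr1 and Ccr3 are adjacent genes of the chemokine receptor cluster in the RefSeq gene table (assembly GRCr8), and their promoter windows are shown because one gene gave signal on every array and the other on none. Each window holds 250 bases before and 50 bases after the transcript start listed by RefSeq. The strand follows that table, chr8:132439217-132439516 on the minus strand for Ccr1 and chr8:132499999-132500298 on the plus strand for Ccr3. Capitals mark matches on either strand to GAGGAA, the core bound by the myeloid factor PU.1, or to AGATAA, bound by GATA factors.
Ccr1: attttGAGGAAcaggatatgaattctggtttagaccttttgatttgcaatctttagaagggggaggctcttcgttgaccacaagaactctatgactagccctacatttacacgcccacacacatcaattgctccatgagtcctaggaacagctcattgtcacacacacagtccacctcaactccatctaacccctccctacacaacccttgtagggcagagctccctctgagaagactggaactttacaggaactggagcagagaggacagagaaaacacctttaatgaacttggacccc
Ccr3: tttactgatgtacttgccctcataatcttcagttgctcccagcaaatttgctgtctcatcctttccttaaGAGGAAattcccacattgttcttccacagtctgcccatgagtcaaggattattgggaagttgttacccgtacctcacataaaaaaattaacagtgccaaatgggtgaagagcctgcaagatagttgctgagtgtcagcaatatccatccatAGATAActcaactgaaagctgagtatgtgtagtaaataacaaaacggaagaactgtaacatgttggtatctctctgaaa
GAGGAA matched at -245 from the start in the Ccr1 window and at -180 in the Ccr3 window, and 27.6% of all 33469 windows hold it. AGATAA matched in the Ccr3 window alone of these 2, at -29, and 11.6% of windows hold it. TTGCNNAA, a C/EBP core present in 10.6% of windows, matched in neither. The 3 motifs did not overlap one another in these windows, and a match is a description of letters, not a bound site.

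Signals are log2 values after quantile normalisation, which gives every array the same distribution, with the raw chemiluminescent intensity beside them. The files hold no detection call, so 464 probes of olfactory receptors, genes that blood cells should not express, served as a guide to background, with their 95th percentile as the level on each array. It lay between 10.71 and 11.20 on tolerant arrays and at 10.73 and 10.80 on syngeneic arrays. Syngeneic array 2 stood apart from the rest: its Pearson r with any other array was 0.83 to 0.85 over all probes, while pairs of the remaining 4 arrays had 0.88 to 0.92. The labelled cell type was checked against its markers. Lyz2, a lysozyme of myeloid cells, and S100a8, a calcium-binding protein of neutrophils and monocytes, were above background on all 5 arrays. S100a9, also in the neutrophil list, was not, with 9.25 on tolerant array 2. Of the markers with a probe, 5 of 8 for monocytes and macrophages and 2 of 9 for neutrophils were above background on all 5 arrays. The myeloid integrin Itgam (CD11b) was above it on 3 tolerant arrays and 1 syngeneic array. Cd3d, a chain of the depleted CD3 complex, was above it on 1 tolerant array and both syngeneic arrays. Cd79b, from the B cell list, and Cd8b, from the T cell list, were above it on all 5 arrays.

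Ccl5 carried by far the widest separation of the trio. Its log2 signal was 13.10, 12.32 and 11.82 on tolerant arrays 1, 2 and 3, against 19.87 and 19.56 on syngeneic arrays 1 and 2. The groups did not overlap: the highest tolerant value lay 6.47 below the lowest syngeneic one. The raw intensities were 4547, 5333 and 4122 on the tolerant arrays, against 1046010 and 963046 on the syngeneic arrays. Before any normalisation, therefore, the dimmer syngeneic array was 181 times as bright as the brightest tolerant array for this probe. Mean log2 signal was 12.41 ± 0.64 in tolerant cells (SD, n = 3) and 19.72 ± 0.21 in syngeneic cells (SD, n = 2), a difference of -7.30, or 158-fold lower in tolerant cells. Leaving out any 1 array kept the difference between -7.65 and -7.01.

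Ccl5 was low in tolerant cells but not lost in background. Its signal lay 1.90, 1.60 and 1.11 above the background level on tolerant arrays 1, 2 and 3, and 9.14 and 8.76 above it on the syngeneic arrays. Of the 464 olfactory receptor probes, 1, 1 and 2 were as bright as Ccl5 or brighter on tolerant arrays 1, 2 and 3, and 0 were on either syngeneic array. The fold is therefore measured between signals above the background level on all 5 arrays. No background was subtracted here, so part of the tolerant signal may be nonspecific. In a bulk sample, fewer Ccl5-producing cells and less Ccl5 RNA per cell cannot be told apart.

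**Figure D1:**
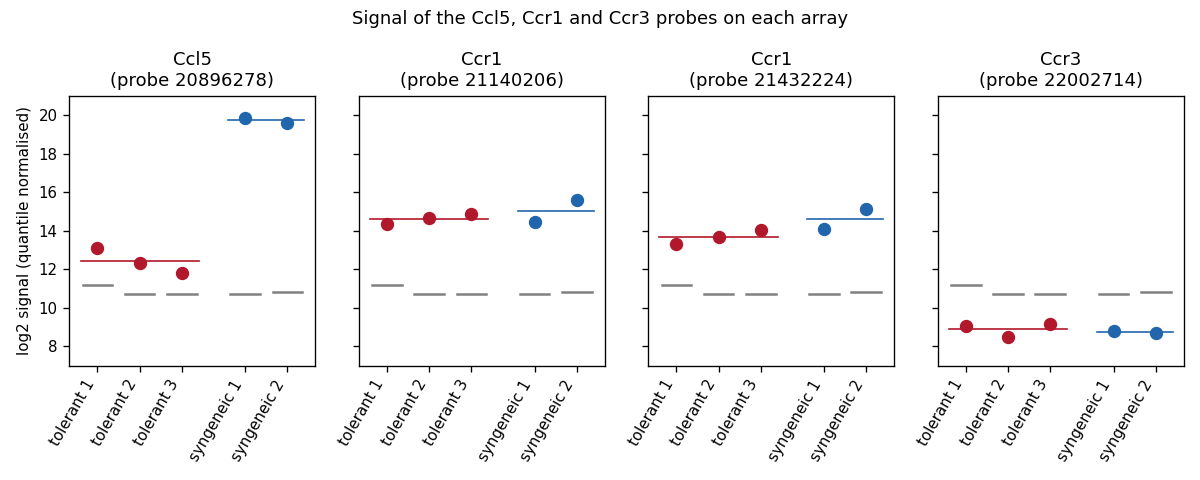
Log2 signal (y axis, quantile normalised) of the probes for Ccl5, Ccr1 and Ccr3 on each of the 5 arrays (x axis); points are arrays, coloured lines are group means and grey dashes are each array's background level. Ccl5 sits at 11.82 to 13.10 on tolerant arrays and at 19.56 and 19.87 on syngeneic arrays, both Ccr1 probes are above background throughout, and Ccr3 is below it throughout.

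Ccr1, the receptor of monocytes and neutrophils, was above background on all 5 arrays with either probe. Its mean differences between groups were -0.40 and -0.92 with the 2 probes. Probe 21140206 gave 14.34, 14.66 and 14.88 on tolerant arrays 1, 2 and 3, against 14.47 and 15.58 on syngeneic arrays 1 and 2. The groups overlapped, since syngeneic array 1 fell within the tolerant range and syngeneic array 2 was the highest. The mean was 14.63 ± 0.27 in tolerant cells (SD, n = 3) and 15.03 ± 0.79 in syngeneic cells (SD, n = 2), a difference of -0.40. Without syngeneic array 2, the array that stood apart, the difference was 0.15, and without syngeneic array 1 it was -0.96, so its sign rests on single arrays.

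The second Ccr1 probe, 21432224, gave 13.33, 13.65 and 14.05 on tolerant arrays 1, 2 and 3, against 14.07 and 15.12 on syngeneic arrays 1 and 2. Every tolerant value lay below both syngeneic values here, but the margin between the nearest pair was 0.0175. The mean was 13.68 ± 0.36 in tolerant cells (SD, n = 3) and 14.60 ± 0.75 in syngeneic cells (SD, n = 2), a difference of -0.92, which was -0.39 without syngeneic array 2 and -1.45 without syngeneic array 1. Both probes were lowest on tolerant array 1 and highest on syngeneic array 2. Their raw intensities ran from 10694 to 34416 and from 5285 to 19143 on the tolerant arrays, against 25521 and 62106, and 19161 and 45687, on the syngeneic arrays.

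Ccr3 gave no signal above background in either group. Its log2 signal was 9.08, 8.49 and 9.14 on tolerant arrays 1, 2 and 3, against 8.78 and 8.68 on syngeneic arrays 1 and 2, all under the background level of its array, with signal minus background at -2.23 to -1.57 on tolerant arrays and at -1.95 and -2.12 on syngeneic arrays. The raw intensities were 459, 313 and 638 on tolerant arrays, against 489 and 410 on syngeneic arrays. Between 172 and 341 of the 464 olfactory receptor probes were as bright or brighter on tolerant arrays, and 283 and 332 on syngeneic arrays. The means, 8.90 ± 0.36 in tolerant cells (SD, n = 3) and 8.73 ± 0.07 in syngeneic cells (SD, n = 2), differed by 0.17, and no fold is given. The RNA was thus not detectable with this probe, which does not show that it was absent.

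Across the whole array, 13428 probes with a mean signal at or above the median were tested with limma, and 6 passed a Benjamini-Hochberg adjusted p of 0.05, all lower in tolerant cells. That is 0.0447% of the probes tested; 721 had an unadjusted p under 0.05, and the median difference over all probes tested was 0.0038. Of the 4 member probes 3 entered this fit, and 1, Ccl5, was among the 6. Ccl5 was selected by this same fall, so the call is no separate support for it. Ccr3 was below the signal filter. Only 5 tested probes had a larger negative difference than Ccl5, among them the beta globins Hbb and Hbb-b1 and the neuropeptide gene Npy, which were not among the 6 calls. Every tolerant array lay below both syngeneic arrays for 10.4% of the probes tested and above both for 9.74%, so separation of this kind was common. The count of 6 became 0 when any array but syngeneic 1 was left out. Without syngeneic 1 it became 76, with 34 lower and 42 higher in tolerant cells.

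The genes whose profiles came nearest to that of Ccl5 were lymphocyte genes. Likeness was the root mean square distance between mean-centred log2 profiles over the 5 arrays, among 3487 tested probes with 1 gene symbol. Values under 8.29 were first set to 8.29, as in the fit. Gzmk, a granule protease of cytotoxic lymphocytes, was nearest at 0.38. Nkg7, found in the granules of cytotoxic cells, and Klrd1 (CD94), an NK lectin-like receptor, followed at 0.75 each. Cd5, a T cell surface glycoprotein, was at 1.09 and Lat, a scaffold below the T cell antigen receptor, at 1.16. Within a distance of 1 lay 3 probes, and within 2 lay 15.

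Gzmk had 9.71, 9.31 and 8.11 on tolerant arrays 1, 2 and 3, against 15.69 and 16.00 on syngeneic arrays. Nkg7 had 11.02, 9.31 and 10.69 on tolerant arrays, against 16.90 and 16.52 on syngeneic arrays. All 5 of these genes were at or below background on every tolerant array, where Ccl5 was above it. Likeness over these arrays reflects mostly the contrast by which Ccl5 was chosen and carries no test.

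**Figure D2:**
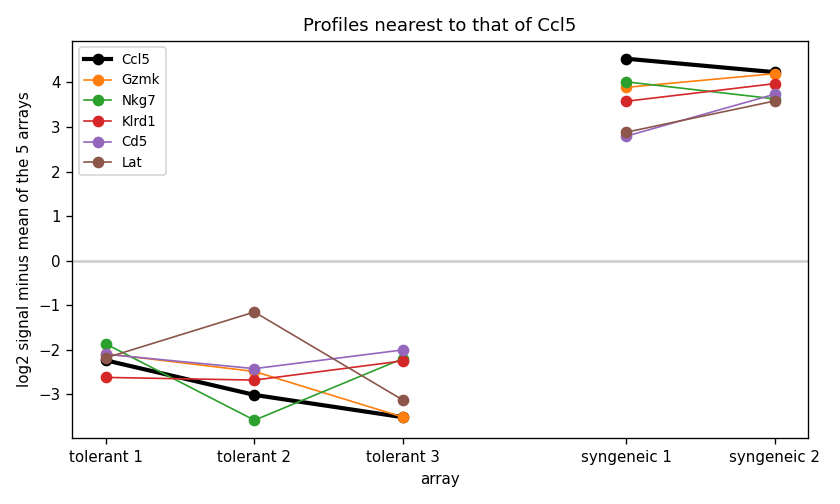
Log2 signal minus the mean of the 5 arrays (y axis) for Ccl5 (black) and the 5 named genes with the nearest profiles, on each array (x axis); lines join arrays of 1 group and imply no order. All 6 genes lie below their mean on the 3 tolerant arrays and above it on the 2 syngeneic arrays, with Gzmk closest to Ccl5 at a distance of 0.38. Values under 8.29 were set to 8.29 before centring.

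Neither receptor had a profile of that shape. The named probes nearest to Ccr1 probe 21140206 were Ccnh (a cyclin of the general transcription machinery, at 0.072), Rab4a (an endosomal GTPase, at 0.083) and Aatf (0.091). For probe 21432224 they were Kcnn3 (a potassium channel, at 0.072), Fah (an enzyme of tyrosine breakdown, at 0.086) and Htr1a (a serotonin receptor, at 0.10). The 2 Ccr1 probes lay 0.26 apart, and 176 other named probes were nearer to the first and 53 nearer to the second. Profiles of small range, here 1.24 and 1.79 over the 5 arrays against 8.05 for Ccl5, have many near neighbours by this measure. For Ccr3, whose signal was background, the nearest were Timp2 (a metalloproteinase inhibitor, at 0.039), Yipf1 (0.045) and Clca4 (0.062).

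Some markers of NK and T cells were lower in tolerant cells, as Ccl5 was; the lists were drawn up with results of these arrays known and are not independent evidence. Without the signal filter, 12 of the 13 NK markers with a probe were lower, with a median difference of -2.76, and 0 passed in limma. With it 11 were tested, of which 8 had a tolerant mean under the filter and were tested through their syngeneic signal, so a difference in that direction was built in for them. Klrk1, an activating NK receptor, differed by -0.04 and Ncr3, another one that the filter removed, by 0.65. Among those tested 3 fell past the threshold: Klrd1 (-6.29, adjusted p = 0.036, at least 16.5-fold), Gzmk (-6.74, adjusted p = 0.040, at least 31.3-fold) and Klre1, another NK receptor (-4.95, adjusted p = 0.040, at least 6.80-fold). All 3 were among the 8 tested through their syngeneic signal, so their p-values are not independent support. These p-values are limma's, adjusted over all probes, and the folds are bounds against background. Of the 13 NK markers 11 were above background on no tolerant array. Their summed signal ran from 9441 to 13367 on tolerant arrays, against 226531 to 249703 on syngeneic arrays. Most of the syngeneic sum came from Nkg7, Gzmk and Klrd1, the 3 genes nearest to Ccl5 by profile, so it does not speak for the whole list. The 3 calls became 0 without any 1 array other than syngeneic 1, without which they were again 3.

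Without the filter, 11 of the 12 T cell markers with a probe were lower, with a median difference of -2.27, and 0 passed in limma; Cd4, a coreceptor also found on rat macrophages, differed by 0.22. With the filter 11 were tested, 4 of them through their syngeneic signal alone, Cd5 and Lat included, and 1 fell past the threshold, Cd5 (-5.44, limma adjusted p = 0.040, at least 9.08-fold). Lat had a difference of -5.39 without passing (limma adjusted p = 0.132). Cd8b, a chain of the CD8 coreceptor, and Cd2, an adhesion receptor, had the highest signals of the list, with differences of -2.71 and -2.53 and limma adjusted p = 0.470 and 0.687. Of the 12 T cell markers 7 were above background on no tolerant array, and their summed signal was 15899 to 23911 on tolerant arrays, against 143995 to 146563 on syngeneic arrays. The part of these cells in the Ccl5 difference was not tested.

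Platelets, the other store of Ccl5, gave little signal. None of their 4 markers with a probe was above background on a tolerant array. Ppbp (the platelet basic protein) and Nrgn were above it on syngeneic array 2 alone, the array that stood apart. Their summed signal was 1719 to 2102 on tolerant arrays, against 2549 to 11339 on syngeneic arrays. Of 2 tested, Nrgn had a difference of -3.13 (limma adjusted p = 0.605) and Gp5, a platelet glycoprotein, one of 0.57 (limma adjusted p = 0.907). Nrgn was tested through its syngeneic signal alone and Gp5 through its tolerant signal alone. Without normalisation 1 platelet marker passed the threshold. The median difference was -1.28, against -2.91 over 3 tested genes without syngeneic array 1 and 0.45 over 1 without syngeneic array 2.

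**Figure D3:**
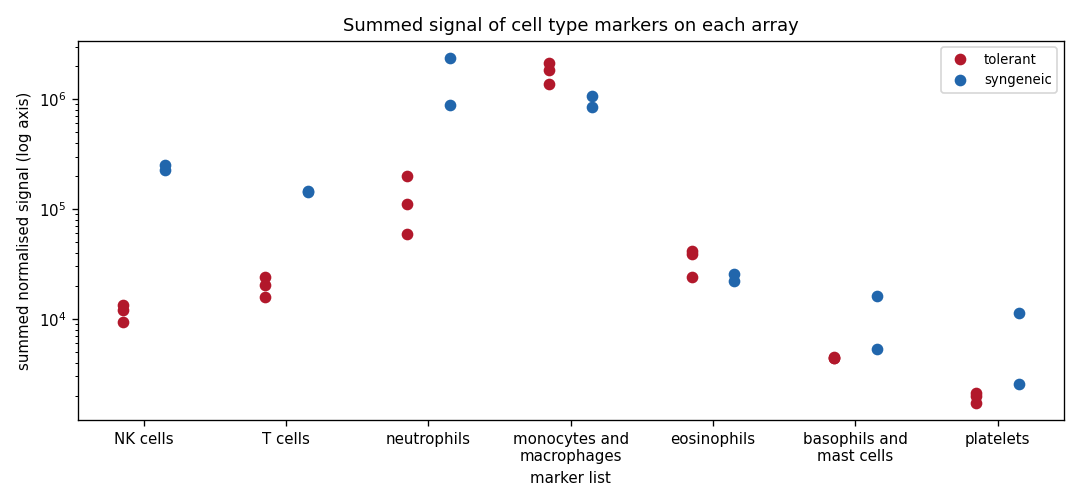
Summed normalised signal (y axis, log scale) of the named markers of 7 blood cell types on each array; red points are the 3 tolerant arrays and blue points the 2 syngeneic arrays, so comparisons hold within a list. NK markers sum to 9441 to 13367 on tolerant arrays and to 226531 and 249703 on syngeneic arrays. On the syngeneic arrays Nkg7, Gzmk and Klrd1 are the brightest of the NK list, and S100a9 and S100a8 of the neutrophil list. The monocyte and macrophage sum, in which Lyz2 is the brightest gene, is higher on all 3 tolerant arrays. Single markers of that list differ: Ccr2 and Cx3cr1 are highest on syngeneic array 1.

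For the cells that carry Ccr1, 0 markers passed the threshold. Without the filter all 9 neutrophil markers with a probe gave negative differences (median -1.63). With it 8 were tested, 3 of them through their syngeneic signal alone (2 passed under median scaling and 4 without normalisation). Their summed signal was 58744 to 199088 on tolerant arrays, against 882465 to 2368830 on syngeneic arrays, highest on the same syngeneic array 2 that gave the highest Ccr1. Most of the syngeneic sum came from S100a9, at 19.11 and 20.51, and S100a8, at 17.92 and 19.59. S100a8 had a difference of -2.84 (limma adjusted p = 0.551) and S100a9 one of -6.63 (limma adjusted p = 0.766). Pglyrp1, a bactericidal granule protein, had one of -3.80 (limma adjusted p = 0.257). All 8 monocyte and macrophage markers with a probe were tested, and 7 had a positive difference, with a median of 1.09. Without syngeneic array 2 the median was 0.39 and 3 of the 8 were negative. Their summed signal was 1376640 to 2132540 on tolerant arrays, against 841900 to 1063890 on syngeneic arrays. Cd14, a coreceptor for lipopolysaccharide, had a difference of 1.22 and Lyz2 one of 0.96 (limma adjusted p = 0.907 for each). The part of either cell type in the Ccr1 signal was not tested.

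Markers of the cells known for Ccr3 were mostly at background as well. Of 4 eosinophil markers with a probe, Prg2 (an eosinophil granule protein) and Il5ra (the IL-5 receptor) were above background on no array, and Adgre1, also in the macrophage list, was above it on all 5. Alox15, a lipoxygenase, was above background on syngeneic array 2 alone. Of 9 basophil and mast cell markers 9 were above background on no tolerant array and 6 on no array at all. Hdc, the enzyme that makes histamine, had a difference of -2.21 (limma adjusted p = 0.881) and was above background on syngeneic array 2 alone. The marker lists of B cells, dendritic cells and red cells had 0 calls, with medians of 2.77 over 2 tested genes, 0.41 over 4 and -5.08 over 4. The dendritic median was -0.86 without syngeneic array 2. Of the red cell markers 2 passed under median scaling and without normalisation. Their median was -0.84 without the filter and -11.4 over 3 tested genes without syngeneic array 1. Their summed signal was 2862 to 5651 on tolerant arrays, against 49221 and 2343940 on syngeneic arrays 1 and 2.

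Other CC chemokines, in a list of ligands related to Ccl5, did not share the Ccl5 pattern to a like extent. Tolerant cells had less of 4 and more of 3 among the 7 tested (median difference -0.21), and 0 passed the threshold in limma. The median was -1.18 without tolerant array 1, 0.02 without tolerant array 2, 0.32 without tolerant array 3 and -0.72 with array weights, so its sign rests on single arrays. Of these Ccl4 alone had an unadjusted p under 0.05. Ccl4, an inflammatory CC chemokine, gave 12.65, 12.40 and 11.93 on tolerant arrays, against 14.05 and 13.30 on syngeneic arrays, a difference of -1.35 (SE 0.46, limma adjusted p = 0.867). Ccl6, a rodent ligand of Ccr1, gave 16.50, 16.10 and 15.83 on tolerant arrays, against 16.72 and 18.41 on syngeneic arrays, a difference of -1.42 (SE 0.60, limma adjusted p = 0.907). In both genes every tolerant array lay below both syngeneic arrays, as it did for 10.4% of all probes tested.

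Ccl3, which binds Ccr1, varied more within groups than between them. It gave 18.60, 15.02 and 14.59 on tolerant arrays, against 17.32 and 15.23 on syngeneic arrays, a difference of -0.21 (SE 1.32). Ccl9, another rodent ligand of Ccr1, gave 14.01, 12.90 and 13.58 on tolerant arrays, against 13.52 and 12.75 on syngeneic arrays, a difference of 0.36 (SE 0.51). Ccl2, a monocyte attractant better known as a ligand of Ccr2, was above background on tolerant array 1 and syngeneic array 1 alone, at 14.59 and 11.24. Ccl11 (eotaxin), the classical ligand of Ccr3, was above it on syngeneic array 2 alone, at 12.24, and Ccl7 and Ccl28 on none. In the RefSeq gene table Ccl9, Ccl6, Ccl3 and Ccl4 are the next 4 protein-coding genes after Ccl5 on its chromosome, and their differences, 0.36, -1.42, -0.21 and -1.35, were each smaller than the -7.30 of Ccl5.

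**Figure D4:**
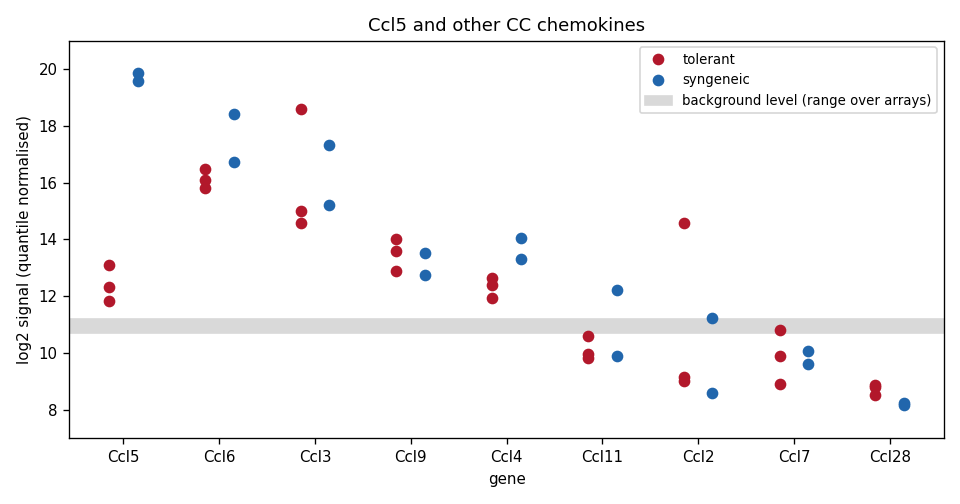
Log2 signal (y axis, quantile normalised) of Ccl5 and of 8 other CC chemokines with a named probe (x axis) on the 3 tolerant arrays (red) and 2 syngeneic arrays (blue); the grey band is the range of the background level, and comparisons hold within a gene since probes differ in brightness. Ccl5 shows the widest gap, 6.47, while Ccl3 and Ccl9 overlap between the groups.

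Proteins that bind or trim Ccl5 gave few signals. The matrix receptor Cd44, which binds chemokines through its sugar chains, was 16.22 ± 0.33 in tolerant cells (SD, n = 3) and 16.44 ± 0.40 in syngeneic cells (SD, n = 2), a difference of -0.22 (SE 0.44). The scavenging receptor Ackr2, the proteoglycans Sdc1 and Sdc4 and the protease Dpp4, which clips the first residues of Ccl5, were at background on every array. Of the 3 tested in this list, Ccr1, Cd44 and Sdc1, 0 passed. Among transcription regulators known at the Ccl5 gene 4 were tested; tolerant cells had less of 1 and more of 3 (median 0.31, against -0.23 without normalisation and -0.26 without syngeneic array 2), and 0 passed. Irf3, an interferon regulatory factor, differed by 0.08 (SE 0.42) and Cebpb, a myeloid regulator, by 0.54 (SE 0.44). Jun differed by 0.56 (SE 1.83), with 15.41, 11.25 and 11.68 on tolerant arrays, against 14.80 and 9.64 on syngeneic arrays.

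Of 24 genes with a probe for signalling below chemokine receptors, 16 were above background on all 5 arrays and 3 on none. Tolerant cells had less of 6 and more of 17 among 23 tested genes (median 0.46), and 0 passed. The median was -0.23 without syngeneic array 2 and -0.12 without normalisation between arrays, so its sign is not settled. Gnai2, the inhibitory G protein subunit through which such receptors signal, was 18.64 ± 0.12 in tolerant cells (SD, n = 3) and 18.34 ± 0.19 in syngeneic cells (SD, n = 2). Rac2, a GTPase that drives leukocyte migration, was 17.24 ± 0.11 in tolerant cells (SD, n = 3) and 17.51 ± 0.33 in syngeneic cells (SD, n = 2). Grk2, a kinase that desensitises active receptors, and Rgs14, which dampens G protein signals, had differences of 1.01 and 0.79 (limma adjusted p = 0.907 for each).

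Chemokine receptors outside the trio included 8 that were tested, of which 3 had a negative and 5 a positive difference (median 0.28, against -1.08 without syngeneic array 2), and 0 passed. Cxcr3, a receptor of activated T and NK cells, came nearest: it gave 9.92, 10.87 and 9.19 on tolerant arrays, against 12.11 and 13.24 on syngeneic arrays, a difference of -2.68 (SE 0.64, limma adjusted p = 0.563), and 1 tolerant array was above background. Cx3cr1, the fractalkine receptor, had a difference of -1.11 (limma adjusted p = 0.907). Cxcr4, which holds cells in the marrow, and Ccr2, the receptor of inflammatory monocytes and a neighbour of Ccr1 in the cluster, had differences of 1.56 and 1.66. The syngeneic arrays were far apart for both: on array 2 Cxcr4 was at 9.39 and Ccr2 at 8.08, with 14.93 and 13.78 on syngeneic array 1. Both Ccr1 probes were at their highest on syngeneic array 2.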

How the data were processed

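Total RNA from 5 sorted samples was labelled with digoxigenin and hybridised to 1-colour Applied Biosystems arrays, per the labels' protocols. One deposited table gives raw intensity for 26857 probes (1 lacked a value). The authors' deposited matrix is on the log2 scale and differed by at most 0.000102 from raw intensities after quantile normalization. No source used here names the software or says whether background was subtracted.

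Members' values are those of the series matrix. For the fit across probes and the likeness profiles, values under the 10th percentile (8.29) were set to it. Probes with a mean at or above the median (9.40) were kept. The program limma 3.58.1 in R 4.3.3 was used with Benjamini-Hochberg adjustment over 13428 probes. It was also run on simulated data without the floor or the filter, so that run does not cover those steps. Differences are tolerant minus syngeneic. The number of arrays limits the precision. The platform annotation names 6104 probes with 1 symbol and 70 with several; the other 20682 probes of the matrix are unnamed here. Where probes shared a symbol the brightest was taken, except for Ccr1. Of the named probes, 6081 matched RefSeq genes. Where all arrays of 1 group were at background, a fold is a bound: the brighter mean against, per array, the higher of background and the probe's own value.

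Members, the 5 pathway lists and the 10 marker lists were chosen with earlier results of these data known. The genes open to naming were the members and any gene of the receptor and ligand lists. For other lists they were those past the threshold, the 2 with the smallest p and the 2 brightest. The 5 nearest profiles for Ccl5 and 3 for each receptor probe were added. Not all of them are named above, for instance the markers Il1r2 (difference -3.71), Nr4a1 (2.42) and Ctss (0.38). Cd3d, Klrk1, Ncr3, Cd4, Itgam, Il5ra, Alox15, Ppbp, the background level and the genes with larger falls than Ccl5 were chosen outside that rule, after their values were seen. Genes without a named probe were not analysed here. Alternatives were median scaling, no normalization, other floors and filters, array weights, a replicate block and leaving out each array.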

Additional observations from a re-analysis of the deposited data

How the results depend on the processing

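Ccl5 kept its direction in every alternative run, between -7.76 without normalization and -7.01 without tolerant array 3; leaving out each array gave -7.65 to -7.01, and Ccr3 gave 0.053 to 0.38. For the Ccr1 probes 21140206 and 21432224 leaving out each array gave -0.96 to 0.15 and -1.45 to -0.39, and no normalization gave -0.94 and -1.45. The median of all probes tested moved to -0.16 under median scaling and -0.37 without normalization, so part of the Ccr1 values there is that shift. Probes past the threshold numbered 6 in the reported fit, 53 under median scaling, 81 without normalization, 0 without the filter on dim probes (1759 had an unadjusted p under 0.05), 0 with array weights (562) and 0 to 76 when each array was left out. The genes of the receptor, ligand, regulator and signalling lists past it stayed at 0 throughout. Called NK and T cell markers, an alternative chosen after seeing the data, numbered 5 and 3 under median scaling, 6 and 5 without normalization, and 0 and 0 without the filter, with array weights or with the block. The replicate numbers were not taken to pair arrays, since the labels tie no array to an animal. Deviations of same-numbered arrays correlated at -0.10 and 0.015. The deviations of the 2 syngeneic arrays mirror each other, so these values cannot decide on pairing. With the replicate block 0 probes passed in limma (474 with an unadjusted p under 0.05). The differences were -7.01 for Ccl5, -0.53 and -1.10 for the Ccr1 probes and 0.053 for Ccr3. They equal those without tolerant array 3, which has no syngeneic array of its number, so the block is not a separate check of them. The number of arrays, 3 against 2, limits all of these results, and for Ccr3 the signal is at background. The cause of these changes was not tested.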
